A study of Mus musculus with 9 samples.

Results

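The comparison described here sets the hippocampal transcriptome of injured Tmsb4x knockout mice against that of mice labelled wild-type sham. It used 6 of the 9 libraries of the series, chosen by their group labels: 3 of conditional knockout mice after mild traumatic brain injury (mTBI, here 1 mild controlled cortical impact) and 3 of wild-type mice that went through the same procedures without the impact. All 55421 genes of the count table were considered, and 19403 passed the filter on low counts and were tested. Mice of every group expressed the red fluorescent protein tdTomato in neurons, and live tdTomato-positive cells were sorted from trypsin-dissociated hippocampus. The labels give neither the time after injury, the sex of the mice, the driver of the Cre recombinase nor the deleted part of Tmsb4x. No knockout sham group belongs to the series, so the genotype label and injury, which differ together between the groups, cannot be told apart. The third group, wild-type mTBI, is used only where the difference between the injured groups was tested.

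Thymosin beta 4, the peptide encoded by Tmsb4x, binds actin monomers and holds them back from filaments. Free actin monomers in turn retain MRTF coactivators of the transcription factor SRF, which controls many cytoskeletal and immediate early genes. In the hippocampus, mild impact injury is known to affect synaptic and activity-regulated transcription, the blood-brain barrier and glia, and the choroid plexus lies in the adjoining ventricle.

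The targeted gene was low in both groups. Tmsb4x had 105, 61 and 85 counts in the libraries labelled wild-type sham and 70, 109 and 108 counts in the injured knockout libraries. Both groups lay far under the wild-type mTBI libraries, which had 35061, 21678 and 11921 counts. The log2 difference between knockout mTBI and sham was 0.15 (SE 0.25, edgeR adjusted p = 0.8825), and an exact two-sided permutation test gave p = 0.5, where 3 against 3 libraries cannot go under 0.1. The level of Tmsb4x therefore goes against the wild-type label of the sham libraries, and every direction below is relative to libraries labelled wild-type sham, called sham for that label alone. Its paralog Tmsb10, also an actin-monomer-binding thymosin, was at 119.9 to 129.2 CPM (counts scaled to the size of the library) in sham and at 115.5 to 155 CPM in the knockout libraries (log2 0.07, edgeR adjusted p = 0.861).

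The 6 libraries had 36452443 to 39117673 counts each and 26413 to 26857 genes with a count. Mitochondrially encoded genes took 4.37% to 5.16% of counts. The sham libraries lay much closer to one another than the knockout libraries: the biological coefficient of variation, the relative spread beyond counting noise, was 3.25% in sham, 18.1% in knockout mTBI and 12.3% in the fit of both groups. On the first principal component, with 35.6% of the variance, the sham libraries lay between -13.3 and -12.6 and knockout replicates 1, 2 and 3 at -10.3, 33.7 and 15. The labels name 3 mice per group. Whether the sham libraries came from separate mice was not tested, and the p-values measure the spread between these samples, which may be technical in sham. Transcripts of cells other than neurons were abundant in spite of the sort, with the myelin gene Mbp at 2809 to 3403 CPM and the astrocyte glutamate transporter Slc1a2 at 2474 to 2978 CPM, beside the neuronal gene Map2 at 1231 to 1591 CPM. The Y-linked gene Ddx3y stood at 49.5 to 58.8 CPM in these 6 libraries and Xist at no more than 0.675 CPM.

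Of the 19403 genes tested, 71 were called, meaning an adjusted p under 0.05 in edgeR's quasi-likelihood test (0.366% of genes tested). The 31 genes that rose made up 0.16% and the 40 that fell 0.206% of genes tested. Called members of the lists below are to be read beside these shares. Fold changes over 2 were found in 18 of the genes that rose and 9 of those that fell. The genes that rose were led by Etnppl, Prkcd, Epn3 and Pcp4l1, and those that fell by the unnamed transcript Gm44846, Pura, Nr4a2 and the sodium-calcium exchanger Slc8a1. In all 71 called genes the 3 knockout libraries lay apart from the 3 sham libraries. Over all genes tested, all 3 knockout libraries lay above all 3 sham libraries in 8.57% and below them in 8.84%. The median log2 difference of all genes tested was 0.00604, and 51.6% of differences were positive. The count of calls changed when a sham library was left out: it was 5 without sham replicate 1, 4 without sham replicate 2 and 4 without sham replicate 3. The sign of all 71 differences was kept each time, and also with the sham libraries summed to 1 sample. Epn3, Etnppl, Prkcd and Gm44846 were called without any single sham library. The knockout libraries mattered as well, with 414 genes called without knockout replicate 1, 711 without knockout replicate 2 and 85 without knockout replicate 3. All 71 were among the first and the second of these sets and 49 among the last.

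**Figure D1:**
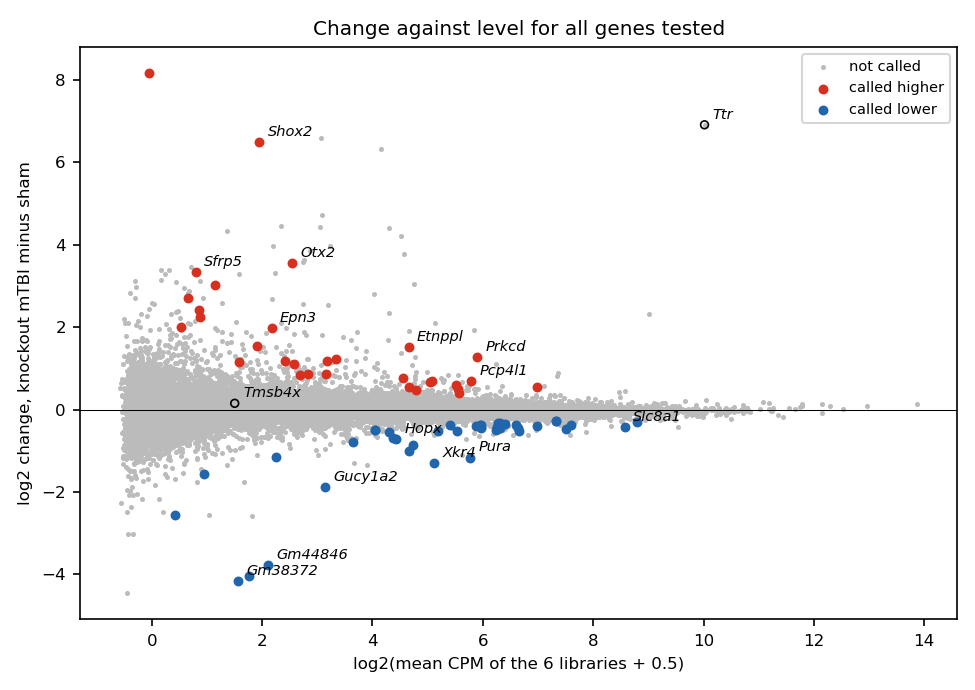
Each point is 1 of the 19403 genes tested, with its level over the 6 libraries on the horizontal axis (log2 CPM) and the log2 difference, knockout mTBI minus sham, on the vertical axis. The 31 genes called higher (red) reach large differences mostly at low levels, the 40 called lower (blue) include many abundant genes with differences under 2-fold, and Ttr and Tmsb4x (open circles) were not called.

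The most firmly separated gene was Etnppl, the lyase that breaks down phosphoethanolamine and is enriched in astrocytes (ENSMUSG00000019232, GRCm38 chromosome 3, 130617448 to 130637521). It stood at 12.4, 12.6 and 13.4 CPM in sham and at 34.7, 40.5 and 34.5 CPM in the knockout libraries. All knockout libraries were thus far above all sham libraries, with a mean of 36.6 ± 3.4 against 12.8 ± 0.521 CPM (SD, n = 3 each, 2.86-fold, log2 1.52, SE 0.09, edgeR adjusted p = 0.000756). General astrocyte markers did not rise with it: 5 of 16 were positive and 11 negative, the median was log2 -0.07, and none was called. All 3 knockout libraries lay below sham in 5 of the 16 and above in 1, against 8.84% and 8.57% of all genes tested. Slc1a2 was at log2 -0.18 (adjusted p = 0.2204) and the glycolytic enzyme Aldoc at 0.10 (adjusted p = 0.774). Agt, the angiotensin precursor made by astrocytes, is outside the astrocyte list and rose. It was at 23.9, 24.98 and 26.9 CPM in sham and 41.4, 45.6 and 36.4 CPM in the knockout (log2 0.70, adjusted p = 0.0182). Of the 250 bases upstream of a listed Etnppl start, which are shown because the gene leads the comparison, none matched the 6 promoter motifs searched (named with their letters where Nr4a2 is described). The window is chr3:130617198-130617447, plus strand, RefSeq on GRCm38.p6. It is the first of 2 windows listed for the gene, and the other was not searched.

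Etnppl: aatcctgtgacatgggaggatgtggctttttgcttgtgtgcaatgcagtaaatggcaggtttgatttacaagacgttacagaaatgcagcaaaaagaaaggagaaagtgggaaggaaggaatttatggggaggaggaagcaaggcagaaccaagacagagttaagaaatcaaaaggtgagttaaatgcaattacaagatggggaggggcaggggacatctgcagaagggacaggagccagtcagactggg

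Prkcd encodes protein kinase C delta, which in the forebrain is a marker of thalamic relay neurons (chromosome 14, 30595354 to 30626210). Its level was 32.6, 36.6 and 34.96 CPM in sham and 94.96, 73.9 and 83.0 CPM in knockout mTBI, a 2.42-fold difference with no overlap (log2 1.27, SE 0.09, edgeR adjusted p = 0.00176). The list of thalamic, habenular, striatal and neocortical markers held 13 positive and 5 negative differences among 18 tested, with a median of log2 0.28 and Prkcd as its 1 called gene. All 3 knockout libraries lay above sham in 6 of the 18 and below in 3, against 8.57% and 8.84% of all genes tested. The lowest difference was log2 -0.70. By library the list's median was log2 0.39, 0.03 and 0.19 in knockout replicates 1 to 3. The Wnt effector Tcf7l2, abundant in thalamus, was at 5.04 to 6.31 CPM in sham and at 31.98, 9.76 and 11.7 CPM in knockout replicates 1 to 3 (log2 1.68, adjusted p = 0.1497). Tnnt1, a troponin also transcribed in thalamus, was at 1.01 to 1.18 CPM in sham and at 11.96, 3.15 and 5.72 CPM in the same order (log2 2.68, adjusted p = 0.0533). It is listed among the markers of CA2 and CA3 pyramidal cells of the hippocampus too. Knockout replicate 1 was the highest library for all 3 genes. Shox2, a homeobox gene of thalamic neurons, had 4, 0 and 4 counts in sham and 520, 132 and 117 counts in the knockout libraries (log2 6.49, SE 0.89, adjusted p = 0.0245), again with replicate 1 highest. The level of these markers per library differed between the knockout mice, and whether more tissue from outside the hippocampus entered those samples was not tested. The list's summed level was 403.2 to 413 CPM in sham and 485.4 to 598.2 CPM in the knockout libraries.

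Epn3, which encodes an epsin (an adaptor of endocytosis), rose from 1.72, 1.71 and 1.47 CPM to 6.38, 6.20 and 6.64 CPM (3.92-fold, log2 1.97, SE 0.15, edgeR adjusted p = 0.00176). The 3 knockout libraries were nearly equal. Pcp4l1, a relative of the calmodulin-binding peptide Pcp4, rose from 43.8, 41.6 and 40.1 CPM to 73.2, 63.99 and 65.2 CPM (log2 0.69, adjusted p = 0.00748). Sfrp5, a secreted antagonist of Wnt ligands, rose from 0.364, 0.193 and 0.105 CPM to 2.45, 2.18 and 2.13 CPM (log2 3.33, adjusted p = 0.0122). It was the 1 called gene among 28 Wnt signalling genes, which had 13 positive and 15 negative differences.

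The choroid plexus epithelium list held 1 gene that rose, and its median differed widely between the knockout libraries. Otx2, the homeobox factor that maintains choroid plexus identity, was at 0.572, 0.826 and 1.10 CPM in sham and at 5.21, 12.96 and 11.3 CPM in the knockout (log2 3.55, SE 0.38, edgeR adjusted p = 0.0103), so it was raised in all 3. All 19 listed genes tested had positive differences with a median of log2 2.33, and Otx2 was the only one called. Ttr, the carrier of thyroid hormone in cerebrospinal fluid, was at 16.5 to 17.5 CPM in sham and at 22.9, 3401 and 2743 CPM in knockout replicates 1, 2 and 3 (adjusted p = 0.101). Enpp2, the lysophospholipase autotaxin, followed the same order at 177.2, 1289 and 1114 CPM against 171.2 to 171.3 CPM (adjusted p = 0.15). The list's median stood at log2 -0.04 from sham in knockout replicate 1, 2.60 in replicate 2 and 2.08 in replicate 3. Replicate 1 was not at the sham level for every member, since Otx2 was raised there and Slc13a4, a sulfate transporter, was at 19.6 CPM against 14.2 to 15.7 CPM in sham (log2 0.68 over the 3 libraries, adjusted p = 0.0811). The part of choroid plexus RNA in the levels of Epn3, Pcp4l1 and Sfrp5 was not tested. The list of ependymal and motile cilia genes, whose cells line the same ventricle, also differed between the libraries, with medians of log2 -0.36, 0.59 and 0.32, and held no called gene.

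Of the 5 red cell genes tested 2 rose, where 0.16% of all genes tested did so. Hbb-bs and Hbb-bt, the adult beta-globin genes, stood at 36.2, 35.2 and 36.7 CPM and at 4.18, 4.21 and 4.35 CPM in sham. They stood at 49.7, 58.3 and 54.1 CPM and at 8.13, 7.37 and 7.46 CPM in the knockout (log2 0.58 and 0.85, edgeR adjusted p = 0.0128 and 0.0245). The 2 genes are close paralogs, and reads shared between them were left out of the counts, so the split between them is uncertain. The alpha-globin gene Hba-a1 was at 28.8 CPM in knockout replicate 1 and at 13.6 and 12.2 CPM in the others, against 9.25 to 11.4 CPM in sham (adjusted p = 0.3015). Vwf, the von Willebrand factor of endothelium, was at 41, 42.3 and 38.95 CPM in sham and 51.5, 54.2 and 55.4 CPM in the knockout (log2 0.40, adjusted p = 0.0245). Vwf is outside the endothelial list, in which 12 of 16 differences were positive and none was called. The red cell list's summed level was 54.2 to 58 CPM in sham and 81 to 90 CPM in the knockout. Whether more blood was left in the injured tissue was not tested.

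None of the genes of the complement, interferon, leukocyte and microglia lists was called. Complement and antigen presentation genes had 20 of 21 positive differences and a median of log2 0.41, and all 3 knockout libraries lay above sham in 6 of the 21, where 8.57% of all genes tested did so. The list's median was log2 0.30, 0.67 and 0.12 in knockout replicates 1, 2 and 3. Cd74, the invariant chain of MHC class II, was at 1.85 to 2.10 CPM in sham and at 6.20, 7.04 and 2.56 CPM in the knockout (log2 1.41, edgeR adjusted p = 0.1415), and B2m, the light chain of MHC class I, at 67.7 to 73.4 against 83.7, 93.0 and 80.0 CPM (adjusted p = 0.1266). Among interferon response genes 19 of 22 were positive, with the median at log2 0.32 and, by library, at 0.40, 0.02 and 0.24 in the knockout. Of 11 markers of infiltrating leukocytes 9 were positive. Their median was 0.48, and they were highest in replicate 2, where the neutrophil gene S100a9 was at 3.66 CPM against 0.573 CPM in replicate 1. Resident microglia markers had 8 positive and 8 negative differences and a median of log2 -0.01. Lgals3bp, a secreted glycoprotein induced by interferon, was called, from 17.1, 16.2 and 17.4 to 27.3, 24.7 and 35.0 CPM (log2 0.78, adjusted p = 0.0464).

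Further genes that rose were transcription factors, enzymes and noncoding RNAs. Six3, a homeobox gene of the anterior forebrain, rose from 0.386 to 0.52 CPM in sham to 1.82 to 2.46 CPM (log2 2.26, edgeR adjusted p = 0.0122). Zic1, a zinc finger factor of brain development, rose from 24.2 to 26.5 CPM to 35.1 to 46.1 CPM (log2 0.68, adjusted p = 0.0324). The secreted phospholipase Pla2g5 rose by log2 2.41 and the scramblase family member Plscr4 by log2 1.11, both at adjusted p = 0.0181. Neat1, the RNA scaffold of nuclear paraspeckles, was at 107.5, 94.5 and 103.7 CPM in sham and 148.8, 137.8 and 159.5 CPM in the knockout (log2 0.55, adjusted p = 0.0181). Sfpq, a protein of the same paraspeckles, fell by log2 0.37, from 211 to 223 CPM in sham to 157.3 to 177.8 CPM (adjusted p = 0.0324). Rn7sk, the small nuclear RNA that restrains the elongation kinase P-TEFb, rose by log2 2.71, and its neighbour C920006O11Rik on the opposite strand, by 3.01 (adjusted p = 0.0181 for both). The lincRNA 9430037G07Rik had no count in any sham library and was at 0.807, 0.563 and 1.44 CPM in the knockout (adjusted p = 0.0370). Were counts independent, 3 counts allowed over the sham group would make it at least 35.2-fold higher. Mates were counted singly and are not independent, so the lower bound is under that value. The semaphorin Sema3f (log2 0.87), the DNA glycosylase Tdg (0.54) and the synaptic adhesion gene Slitrk6 (1.16) also rose, at adjusted p between 0.0245 and 0.0446.

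**Figure D2:**
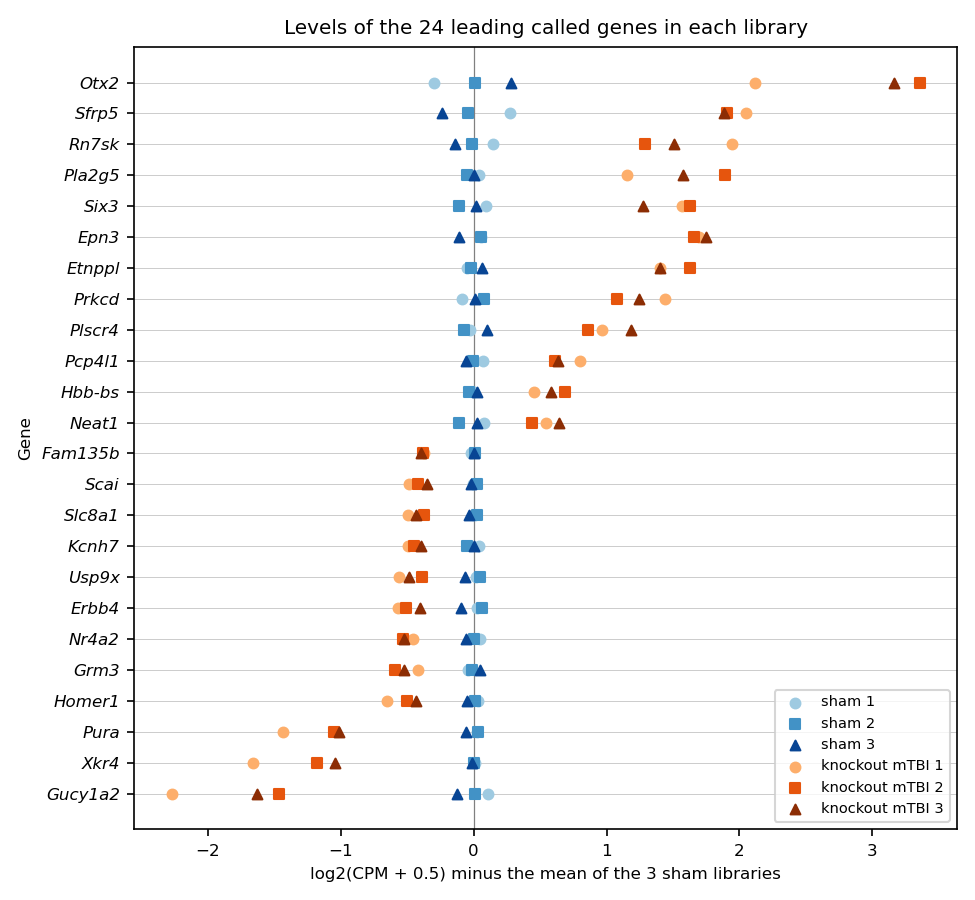
Each row is 1 of the 12 genes of smallest p that rose or fell, with the log2 level of each library relative to the mean of the 3 sham libraries on the horizontal axis. Blue symbols (sham replicates 1 to 3) cluster at 0 in every row, and orange to brown symbols (knockout mTBI replicates 1 to 3) lie apart from them, with Otx2 and Gucy1a2 showing the widest gap between knockout libraries.

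Activity-regulated genes were split, with 2 of 31 called, both lower, where 0.206% of all genes tested were called lower. Nr4a2, an orphan nuclear receptor and immediate early gene (ENSMUSG00000026826, chromosome 2, 57106830 to 57124003), was at 55.8, 54.2 and 51.9 CPM in sham and at 39.3, 37.2 and 37.4 CPM in knockout mTBI (log2 -0.51, SE 0.05, edgeR adjusted p = 0.0103). Homer1, whose product scaffolds group I metabotropic glutamate receptors (chromosome 13, 93299635 to 93405129), was at 121, 119.3 and 114.4 CPM against 75.0, 83.3 and 87.6 CPM (log2 -0.53, SE 0.06, adjusted p = 0.0140). Neither gene's groups came near to overlapping. The neurotrophin gene Bdnf was at 40.7 to 42.3 CPM in sham and 30.3 to 34.8 CPM in the knockout and missed the threshold (log2 -0.37, adjusted p = 0.0649). The SRF-regulated genes Egr1 (log2 -0.25, adjusted p = 0.61) and Arc (log2 0.20, adjusted p = 0.459) did not pass. Of the 31 genes, 17 were positive and 14 negative, with a median of log2 0.06.

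The upstream sequences of Nr4a2 and Homer1 are shown because both genes fell and both hold the core of the cyclic AMP response element there. The motifs searched on both strands were the cyclic AMP response element TGACGTCA, its core TGACG, the TATA box TATAAA, the CCAAT box, the GC box GGGCGG and the E-box CACGTG. Matches, some of which touch or overlap, are in capitals. The windows hold the 250 bases before a RefSeq start on GRCm38.p6: chr2:57124004-57124253, minus strand, for Nr4a2, and chr13:93303507-93303756, plus strand, for Homer1, the first of 2 windows listed for that gene.

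Nr4a2: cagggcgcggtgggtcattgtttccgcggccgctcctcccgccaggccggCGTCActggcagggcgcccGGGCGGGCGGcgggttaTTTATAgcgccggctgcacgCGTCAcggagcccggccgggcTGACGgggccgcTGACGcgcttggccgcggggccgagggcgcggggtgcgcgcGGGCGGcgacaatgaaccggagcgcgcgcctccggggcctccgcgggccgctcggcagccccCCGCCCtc

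Homer1: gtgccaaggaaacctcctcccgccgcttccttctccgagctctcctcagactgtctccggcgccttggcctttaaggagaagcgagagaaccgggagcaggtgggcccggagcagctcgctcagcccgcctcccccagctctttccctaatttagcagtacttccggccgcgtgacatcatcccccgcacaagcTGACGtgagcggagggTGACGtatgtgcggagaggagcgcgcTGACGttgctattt

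Nr4a2 held 4 copies of the core TGACG and 4 copies of the GC box GGGCGG, and Homer1 held 3 copies of the core. Among all 27025 windows outside chromosome 18, 17.9% held the core, against 6 of 21 matched genes that fell (28.6%) and 2 of 23 matched genes that rose (8.7%). The TATA box TATAAA was found in 13.0% of all windows, in 7 of 23 genes that rose (30.4%) and in 1 of 21 that fell (4.76%). Median GC content was 52.0% in all windows, 55.2% in genes that rose and 62.4% in genes that fell. These are descriptions of letters in small sets of windows.

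Of the genes that fell, 2 belong to the postsynaptic glutamate list of 34 genes, where 0.206% of all genes tested fell. Postsynaptic glutamate genes had 30 of 34 negative differences with a median of log2 -0.08, at -0.12, -0.12 and -0.05 in the 3 knockout libraries, and all 3 knockout libraries lay below sham in 10 of the 34, where 8.84% of all genes tested did so. The called genes of the list were Homer1 and Grm3, the group II metabotropic receptor of neurons and astrocytes, at 41.4, 42.2 and 44.0 CPM in sham and 31.7, 28.1 and 29.5 CPM in the knockout (log2 -0.52, edgeR adjusted p = 0.0181). Grm5, a group I receptor, did not pass (log2 -0.16, adjusted p = 0.226). Outside that list, Slc8a1, the sodium-calcium exchanger, was at 440.7, 444.1 and 426.3 CPM against 311.1, 337.5 and 324.1 CPM (log2 -0.43, SE 0.04, adjusted p = 0.0103). Gucy1a2, the alpha 2 subunit of the nitric oxide receptor guanylate cyclase, fell the most among named protein-coding genes, from 14.2, 13.2 and 11.96 CPM to 2.32, 4.43 and 3.90 CPM (3.69-fold, log2 -1.88, SE 0.21, adjusted p = 0.0122).

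Potassium channel genes were balanced in number, with 19 positive and 19 negative differences, but held 2 called genes that fell. Of all genes tested 0.206% fell. Kcnh7, a channel of the ERG family, was at 73.6, 69.2 and 71.9 CPM in sham and 50.7, 52.3 and 54.2 CPM in the knockout (log2 -0.45, edgeR adjusted p = 0.0122). Kcnip3, a calcium-binding channel partner that also represses transcription, was at 86.6, 84.7 and 86.7 CPM against 68.1, 68.2 and 68.9 CPM (log2 -0.33, adjusted p = 0.0181). All 3 knockout libraries lay below sham in 11 of the 38 channel genes and above in 3. Over all genes tested the shares were 8.84% below and 8.57% above. Kctd16, an auxiliary subunit of GABA-B receptors, fell by log2 0.50 (adjusted p = 0.0446). GABA interneuron markers had 8 positive and 8 negative differences, and 2 fell, where 0.206% of all genes tested did so. Erbb4, the neuregulin receptor, went from 82.6 to 92.2 CPM down to 59.1 to 66.4 CPM (log2 -0.50, adjusted p = 0.0181). Crhbp, which binds corticotropin-releasing hormone, went from 25.4, 23.7 and 25.3 CPM to 17.4, 14.3 and 14.7 CPM (log2 -0.68, adjusted p = 0.0245). The peptide genes Sst (log2 -0.27) and Cck (log2 -0.19) did not pass (adjusted p = 0.2901 and 0.2365). Crhbp was the 1 called gene of the glucocorticoid response list, where 14 of 20 genes were positive with a median of log2 0.33. All 3 knockout libraries lay above sham in 11 of the 20 (8.57% of all genes tested) and below in 2 (8.84%). In that list the kinase gene Sgk1 was at 46.8 to 48.2 CPM in sham and at 60.9, 155.4 and 90.3 CPM in the knockout (log2 1.11, adjusted p = 0.1538).

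Other genes that fell are given singly and form no list. Pura, a nucleic acid-binding protein of neurons (chromosome 18, 36281097 to 36292535), was at 75.98, 76.5 and 71.7 CPM in sham and at 27.4, 35.9 and 36.7 CPM in the knockout (2.24-fold, log2 -1.17, SE 0.10, edgeR adjusted p = 0.00504). Its relative Purb was at log2 -0.11 (adjusted p = 0.399). The deubiquitinase Usp9x fell by log2 0.48 and the ubiquitin ligase Ube3a by log2 0.35 (adjusted p = 0.0145 and 0.0245). Ube3a overlaps the noncoding RNA Snhg14, which runs antisense to it and fell by log2 0.44 (adjusted p = 0.0181). The 2 genes share only the stretch from 59307924 to 59311536 on chromosome 7. Because strand was not used in counting, reads of that stretch cannot be told apart. Scai, an inhibitor of the MRTF coactivators of SRF, was at 86.1, 88.2 and 85.5 CPM in sham and 61.6, 64.7 and 67.9 CPM in the knockout (log2 -0.42, adjusted p = 0.0154). The actin-binding protein Ccdc88a, known as girdin, fell by log2 0.45, the microtubule-binding tumour suppressor Apc by 0.29 and the actin-associated adaptor Sorbs2 by 0.27 (adjusted p between 0.0355 and 0.0464). Xkr4, of the XK family of membrane proteins, was at 48.9, 48.7 and 48.1 CPM against 15, 21.2 and 23.3 CPM (log2 -1.29, adjusted p = 0.0103), and the DNA demethylase Tet1 fell by log2 0.49 (adjusted p = 0.0464).

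The lists closest to thymosin beta 4 function, actin dynamics and SRF targets, held no called gene. Scai, Ccdc88a and Sorbs2, given above as called, are outside both lists. Of 38 genes of actin dynamics 18 were positive and 20 negative, with a median of log2 -0.0031 and none called. The cofilin phosphatase Ssh1 had the smallest p, at 28.7, 29.1 and 26.6 CPM in sham and 35.8, 34.3 and 35.1 CPM in the knockout (log2 0.32, edgeR adjusted p = 0.0869). SRF targets had 16 of 20 positive with a median of log2 0.13, and none was called. The median of that list was log2 0.05, -0.02 and 0.13 in knockout replicates 1 to 3, so it was not raised in each library.

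Several short transcript models inside longer genes fell more than the genes around them. Gm44846 (chromosome 7, 88119158 to 88122400), an unclassified model within Grm5, was at 8.03, 7.38 and 5.95 CPM in sham and at 0.365, 0.717 and 0.462 CPM in the knockout (log2 -3.78, SE 0.25, edgeR adjusted p = 0.00151), while Grm5 itself was at log2 -0.16. Gm38372, within Pcmtd1, was at 5.56, 4.30 and 4.09 CPM against 0.261, 0.41 and 0.103 CPM (log2 -4.16, adjusted p = 0.00504), while Pcmtd1 was at log2 -0.01 (adjusted p = 0.972). Models within Ftx (Gm38020, log2 -0.99), Dlg2 (B230206I08Rik, -2.57) and Lrif1 (Gm38253, -1.57) fell too, beside host genes at log2 -0.16, -0.07 and -0.07, none of them called. The pseudogene Gm9855 went from 4.78, 5.78 and 5.74 CPM to 0.469, 0.102 and 0.41 CPM (log2 -4.04, adjusted p = 0.00559), and reads of a processed pseudogene can be split with its parent gene. These models, outside the rule for named genes in part, were chosen after their values were seen. In all, 24 of the 71 called genes have exons that overlap those of another gene, 19 of them on the opposite strand.

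Among progenitor and proliferation genes, 1 fell and 1 rose. Hopx, a homeodomain-only cofactor that marks quiescent neural stem cells and astrocytes, was at 25.5, 25.7 and 27.5 CPM in sham and at 17.2, 13.5 and 17.1 CPM in the knockout (log2 -0.72, SE 0.10, edgeR adjusted p = 0.0306). It overlaps the antisense gene Hopxos. Markers of immature neurons and progenitors had 15 of 17 negative differences and a median of log2 -0.24, at -0.19, -0.27 and -0.18 in the 3 knockout libraries. The stem cell factor Sox2 (log2 -0.26, adjusted p = 0.214) and the tubulin gene Tubb2b (log2 -0.26, adjusted p = 0.0833) did not pass. Eomes, the factor of intermediate progenitors, went the other way, at 0.364 to 0.936 CPM in sham and 2.53 to 2.97 CPM in the knockout (log2 1.94, adjusted p = 0.0506). Of 21 proliferation genes, 15 were negative with a median of log2 -0.16. The replication helicase gene Mcm6 was the 1 called and rose, from 5.41, 6.20 and 5.53 CPM to 11.2, 11.9 and 17.3 CPM (log2 1.24, adjusted p = 0.0245), while its partners Mcm2 and Mcm5 were at log2 -0.02 and -0.18 (adjusted p = 0.980 and 0.689).

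Other lists without a called gene stood between these. General neuronal markers had 6 positive and 10 negative differences and a median of log2 -0.02. CA1 pyramidal cell markers had 11 of 13 negative with a median of -0.12, protocadherins 19 of 21 negative with a median of -0.14, and neuropeptides 12 of 18 negative with a median of -0.16. All 3 knockout libraries lay below sham in 6, 8 and 4 genes of these lists, in that order, against 8.84% of all genes tested. They lay above sham in 0, 1 and 1, against 8.57%. Lysosome genes had 20 of 28 positive with a median of log2 0.10. In 9 of the 28 all 3 knockout libraries lay above sham, and in 0 below it. Oligodendrocyte markers had a median of log2 -0.02, with Mbp at 0.05 (edgeR adjusted p = 0.866). Of 16 fibroblast and meningeal genes 10 were negative, and their median was -0.14. Among these Myoc, the secreted glycoprotein myocilin, was just outside the threshold, at 19.3, 19.8 and 21.1 CPM in sham and 12.4, 11.3 and 14.6 CPM in the knockout (log2 -0.65, adjusted p = 0.0501).

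**Figure D3:**
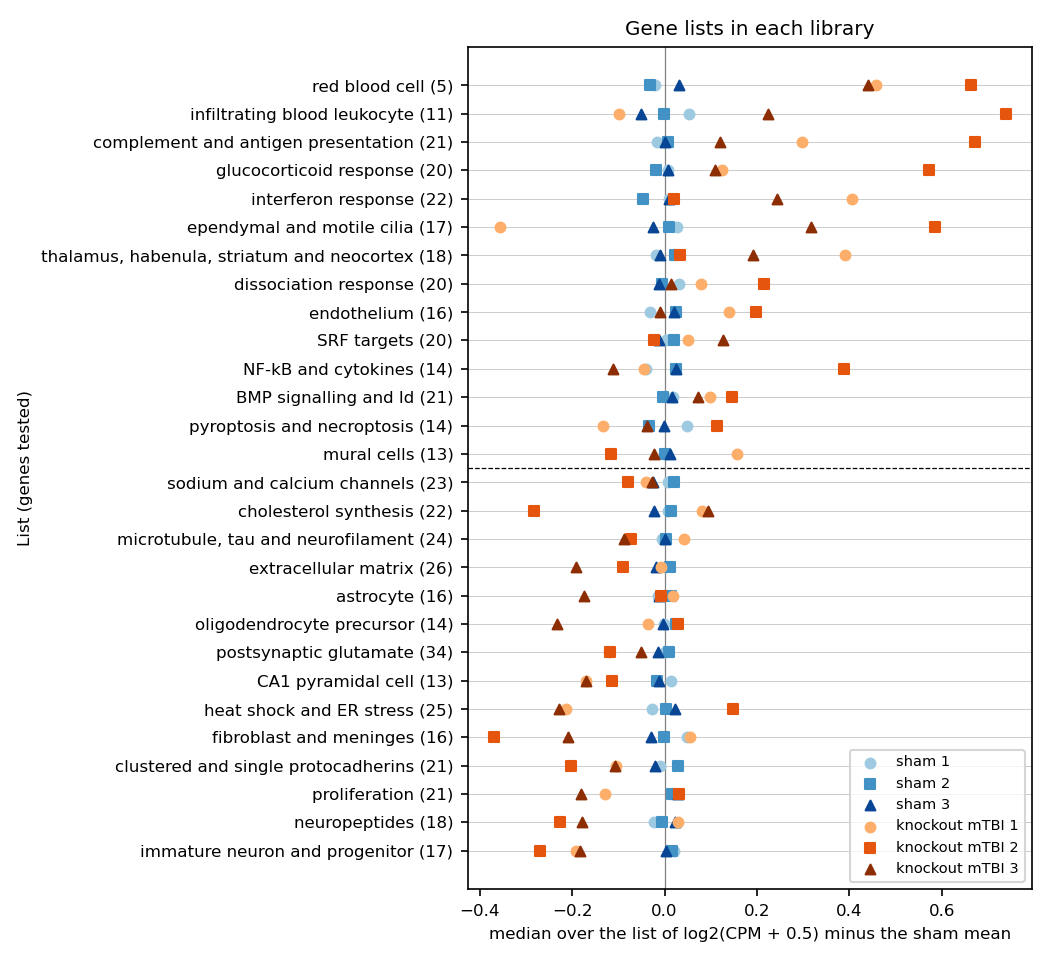
Each row is a gene list with its number of tested genes, and each symbol the list's median log2 level in 1 library relative to the sham mean. The 14 lists with the highest and the 14 with the lowest medians are shown above and below the dashed line, without choroid plexus. Sham libraries (blue) stay near 0, while knockout replicate 2 (squares) stands highest for leukocyte, complement and glucocorticoid genes, and the 3 knockout libraries lie together for immature neuron genes.

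The genes that fell were long. Their median span from start to end was 104961 bases, against 18370 bases for all genes tested and 13173 bases for the genes that rose. Their exons were longer too, with a median summed length of 7804.5 bases, against 3731 for all genes tested and 3806 for the genes that rose. Spans over 100 kb were found in 24 of the 40 genes that fell (60%), in 1 of the 31 that rose (3.23%) and in 12.6% of all genes tested. Among protein-coding genes the shares were 23 of 32 (71.9%), 1 of 26 (3.85%) and 15.2%. The longest gene that fell was Erbb4, at 1075874 bases. All 2441 tested genes over 100 kb had a median log2 difference of -0.0264, at -0.03, -0.05 and -0.01 in knockout replicates 1 to 3. In sham replicates 1 to 3 it was 0.0052, 0.0058 and -0.01, so sham replicate 3 and knockout replicate 3 had about the same value. Across 12048 genes, the rank correlation of span with the level in a library, relative to its mean level in sham, was 0.069, 0.06 and -0.133 in sham and -0.121, -0.109 and -0.039 in the knockout. With exon length in place of span it was 0.097, 0.058 and -0.159 in sham and -0.132, -0.106 and -0.044 in the knockout. The part of span and of exon length in the genes that fell was not tested. After removal of the trend on span in each library, 62 genes were called, 27 higher and 35 lower, and 60 of the 71 were among them.

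**Figure D4:**
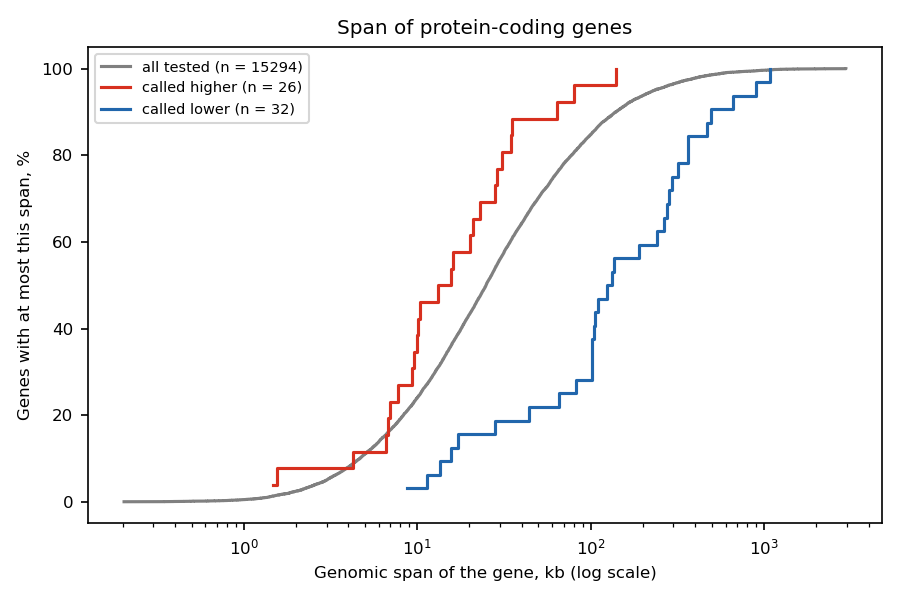
The share of protein-coding genes (vertical axis, %) with at most a given genomic span (horizontal axis, kb, log scale) is drawn for all genes tested, the 26 that rose and the 32 that fell. The curve of genes that fell lies to the right, with 71.9% of genes over 100 kb against 15.2% of all genes tested.

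The difference between the injured groups was tested in a fit of all 9 libraries, whose contrasts share libraries with the main comparison. In the third wild-type mTBI library Xist was at 833 CPM and Ddx3y at 0.0497 CPM, unlike in the other libraries, so sex was unbalanced there. Knockout and wild-type mTBI differed in 3 of 20032 genes (0.015% of genes tested), and wild-type mTBI and sham in 102 (0.509%). Etnppl was called there by edgeR. It stood at 19.1, 17.9 and 16.9 CPM in wild-type mTBI, above sham and below the knockout (knockout minus wild-type mTBI log2 1.03, SE 0.09, adjusted p = 0.00299). Nr4a2 was at 53.3, 53.9 and 54.0 CPM in wild-type mTBI, within the range of sham, and its difference from the knockout missed the threshold (log2 -0.50, adjusted p = 0.0575). Myoc was at 29.5, 22.1 and 27.3 CPM, above both other groups (knockout minus wild-type mTBI log2 -1.04, adjusted p = 0.0380). Hopx was at 34.2, 20.2 and 22.6 CPM, a wide spread that did not pass against the knockout (adjusted p = 0.732).

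Other leading genes did not pass between the injured groups and lay on the same side of sham in both. Epn3 was at 7.56, 9.83 and 8.74 CPM in wild-type mTBI, each above the knockout libraries (knockout minus wild-type mTBI log2 -0.44, edgeR adjusted p = 0.732), Prkcd at 61, 44.8 and 81.7 CPM (0.43, adjusted p = 0.732) and Pura at 32.8, 41.2 and 32 CPM (-0.08, adjusted p = 0.851). Gucy1a2 was at 2.02, 5.15 and 2.96 CPM (0.07, adjusted p = 0.958). For wild-type mTBI minus sham, edgeR gave adjusted p = 6.87e-05 for Epn3, 0.00637 for Pura and 0.0329 for Gucy1a2. Prkcd was not called there (adjusted p = 0.067). A p that misses the threshold does not show that the injured groups were alike. In the 9-library fit 14 genes were called between knockout mTBI and sham, and all 14 were among the 71.

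**Figure D5:**
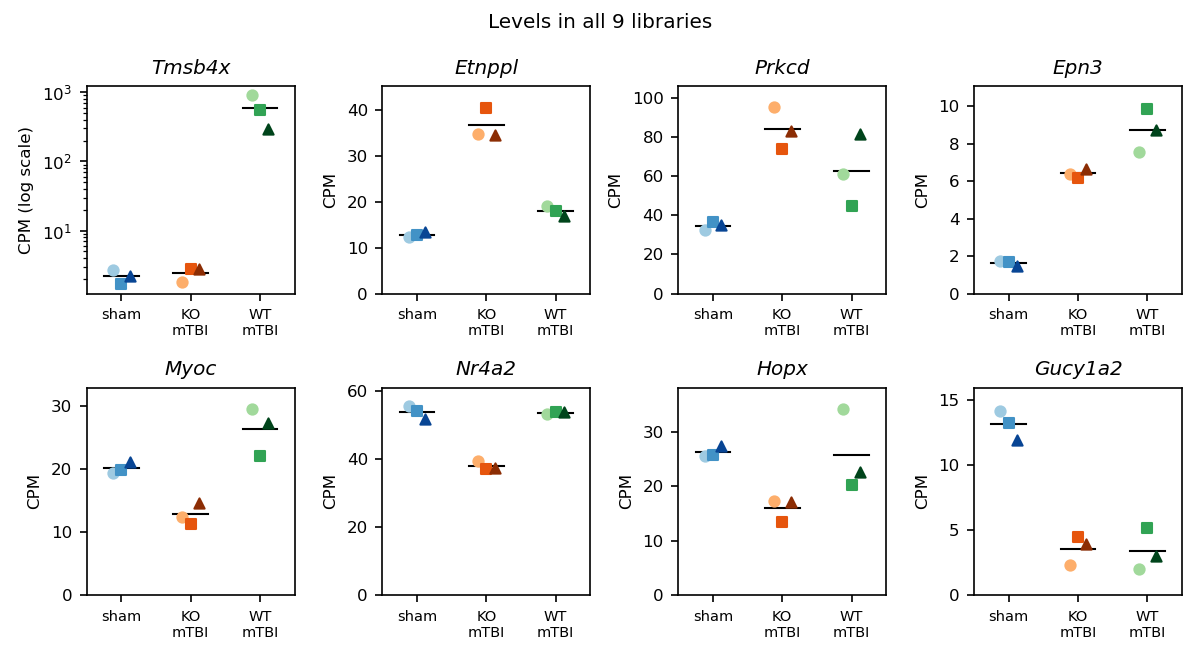
CPM of 8 genes in the 3 sham (blue), 3 knockout mTBI (orange) and 3 wild-type mTBI (green) libraries, with a line at each group's mean and a log axis for Tmsb4x only. Tmsb4x is low in sham and knockout mTBI, Etnppl is highest and Nr4a2 lowest in knockout mTBI, Epn3 is somewhat higher in wild-type than in knockout mTBI, and Gucy1a2 overlaps between the injured groups.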

How the data were processed

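RNA of sorted hippocampal cells was sequenced as paired reads of 150 bp. The deposited values are raw counts per Ensembl gene. Per the file headers, the authors made them with featureCounts 2.0.6 over exons of Ensembl release 98 on GRCm38. HISAT2, SAMtools, Trim Galore, MultiQC, FastQC and the build mm10 are named, without versions or roles, per the submitters' processing notes. The recorded command held no option for read pairs, strand or multi-mapping reads, so mates were counted singly (58.7% to 59.9% of the gene counts of a library were even), without regard to strand, and reads with several alignments were not counted. Symbols, positions and spans came from GENCODE M21, which matched 55240 of 55421 genes.

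The 6 libraries were fitted with edgeR 4.0.16 in R 4.3.3: filterByExpr, TMM scaling, the two-sided quasi-likelihood F test, 4 residual and 4.74 prior degrees of freedom, and Benjamini-Hochberg adjustment over the 19403 genes tested, with calls at an adjusted p under 0.05. Levels are TMM-scaled CPM, and 0.5 CPM was added before log2 for values per library. The contrasts with wild-type mTBI came from a fit of all 9 libraries with 6 residual degrees of freedom. Lists were described, not tested. The script was tested on simulated data. Counting error limits low genes, since mates are not independent.

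Members and lists were chosen with earlier results of these data known. Named genes were Tmsb4x and Tmsb10, the 12 called genes of smallest p in each direction with a mean count of at least 20, groups apart and an established symbol (no predicted genes, RIKEN clones or pseudogenes), up to 4 members of smallest p from each list described, the 2 markers of highest level in each list of non-neuronal cells, and up to 6 called genes of largest change. Other genes named were chosen after their values were seen. Alternatives were other scalings and filters, DESeq2 1.42.0, limma 3.58.1 voom, a fold minimum of 1.2, halved counts, the 9-library fit, a replicate block, sham libraries summed, each library left out, and, chosen after seeing the data, removal of a trend on genomic span.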

Additional observations from a re-analysis of the deposited data

Results flagged for a closer look

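In 3 genes named above, knockout mTBI and wild-type mTBI differed by a test of the difference itself in the 9-library edgeR fit. Tmsb4x differed by log2 -7.88 (adjusted p = 2.07e-05), Etnppl by 1.03 (adjusted p = 0.00299) and Myoc by -1.04 (adjusted p = 0.0380). Against sham, Tmsb4x was at log2 0.15 and Myoc at -0.65 in knockout mTBI, neither called, and Etnppl at 1.52, called.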

How the results depend on the processing

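The sign of all 71 differences was kept in every alternative in which the gene was tested. The number of calls moved more. It was 440 with DESeq2 (235 higher, 205 lower), 321 in voom with sample weights (139 and 182), 181 in voom weighted by group (79 and 102) and 448 without a count filter (267 and 181). It was 14 with all 9 libraries in the fit (10 and 4), 18 with the fold minimum of 1.2 (10 and 8) and 0 with the sham libraries summed (0 and 0), where edgeR had 410 genes at an unadjusted p under 0.05. With single libraries left out it ran from 4 to 711 (higher 3 to 301, lower 1 to 410). All 71 calls held with DESeq2 and both voom fits, and 49 held without knockout replicate 3. RLE scaling gave 81 calls, no composition scaling 72, halved counts 68, the stricter filter 58, the fit without mitochondrial, haemoglobin and ribosomal RNA genes 80, and removal of the span trend 62. The share of calls that were higher was 43.7%, against 53.4% with DESeq2 and 59.6% without a filter.

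With a replicate block, 26 genes were called (16 higher, 10 lower), 23 of them among the 71. Deviations of same-numbered libraries correlated at -0.013, -0.014 and -0.014 over 12048 genes. The biological coefficient of variation within sham was only 3.25%, so these values cannot decide whether same-numbered libraries share more than a number.

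Among named genes, signs turned only with single libraries left out, in genes that were not called. The ranges were log2 -0.0089 to 0.33 for Tmsb4x, -0.073 to 0.15 for Tmsb10, -0.022 to 0.061 for Ccdc39, -0.024 to 0.20 for Aldoc, -0.041 to 0.10 for Mbp, -0.18 to 0.016 for Rgs5, -0.17 to 0.059 for Vtn and -0.035 to 0.030 for Pdgfra. Of 400 list medians under the alternatives, 391 moved by less than the spread between libraries and 9 by more. The cause of these changes was not tested. At 36452443 counts or more per library, genes under 1 CPM rest on few fragments.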
